A study of Brachypodium distachyon with 20 samples.

Results

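Auxin receptors of the TIR1/AFB family and transcription factors of the AUXIN RESPONSE FACTOR (ARF) family were followed through the developing grain of Brachypodium distachyon. The set held 9 of the 23749 genes in the deposited expression table, 2 receptors (Bradi2g35720.1 and Bradi3g58327.1) and 7 ARF genes (Bradi2g59480.1, Bradi4g07470.1, Bradi1g32547.1, Bradi5g25767.1, Bradi2g19867.1, Bradi2g50120.2 and Bradi5g27400.1). They were taken by identifier from the families drawn in the study, with no rule on a measured value. They are not whole families, since at least 1 near copy of a receptor lies outside the set. How many other ARF genes lie outside it was not counted. All 9 passed the filter on low values, so every gene of the set was tested.

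RNA-seq was run on hand-dissected wild-type tissue of Bd21, the inbred reference line of this grass. The 10 groups were seed coat (SEC), late endosperm (LEN), early endosperm (EEN) and embryos of 7 stages, in order of age TCQ (2-cell or quadrant), PEM (pro-embryo), TRA (transition), LEE (leaf early), LEM (leaf middle), LEL (leaf late) and MAT (mature). All plants were of 1 genotype with no treatment named in the labels, each group had 2 libraries, and each library was a pool of many embryos or of tissue from many grains, so no value belongs to a single seed. Embryos labelled E180 and E400 were not analysed here.

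Auxin acts through a short chain. The hormone joins a TIR1/AFB F-box protein to an Aux/IAA repressor, the repressor is ubiquitinated and degraded, and the ARF proteins it held in check, which sit on auxin response elements in the DNA, are released to change transcription. In Arabidopsis, ARF6 and ARF8 act as activators, ARF2, ARF3 and ARF4 and the group of ARF10, ARF16 and ARF17 act largely as repressors, and several of these transcripts are cut by small RNAs. Auxin sets the apical-basal axis and the organ positions of the Arabidopsis embryo, and in that species also drives the growth of endosperm and seed coat. Whether auxin does so in Brachypodium was not tested here.

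Values were log2 CPM, read counts scaled by library size and put on a log2 scale, deposited by the authors after their own normalization. The lowest value that libraries shared differed between genes, so the values held a step beyond scaling by library size. A step of 1 is a 2-fold change. CPM is not divided by transcript length, so levels of 1 gene were compared between groups and levels of different genes were not ranked. A change was called where limma's test, fitted on all 22902 genes tested, gave a Benjamini-Hochberg adjusted p under 0.05, and errors of changes are standard errors (SE) from that fit. The study's methods call the 2 pools of a group biological replicates. Whether the pools differ in planting or in day of dissection is not given. The p-values set a change against the spread between pools of a group, estimated for each gene over all 10 groups together. A group with a wider or narrower spread than the others is judged by this shared estimate.

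**Figure D1:**
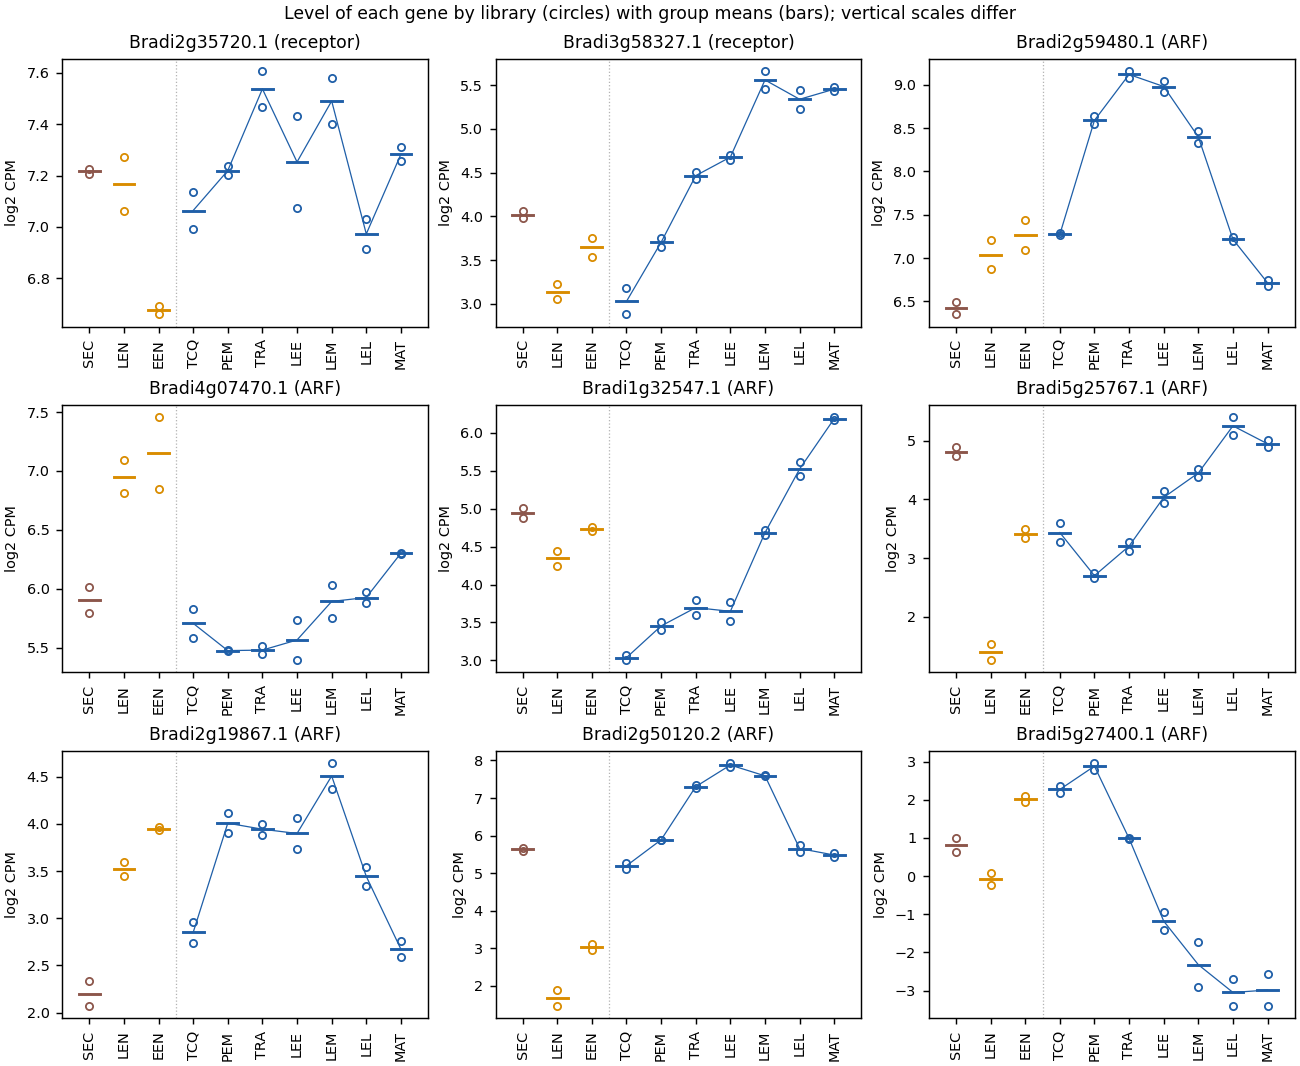
Level of each of the 9 genes in log2 CPM (vertical axes, with different scales) in the 20 libraries (circles) and as group means (bars), with seed coat and endosperm to the left of the dotted line and embryo stages in order of age to the right. Bradi2g35720.1 stays between 6.66 and 7.61 in all libraries, Bradi2g59480.1 and Bradi2g50120.2 peak in TRA and LEE embryos, and Bradi5g27400.1 is highest in PEM embryos.

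All 9 genes differed among the 10 groups (limma F test), where 98.7% of all genes tested did, with adjusted p from 6.0e-15 for Bradi2g50120.2 to 1.1e-04 for Bradi2g35720.1. All 9 also differed among the 7 embryo stages, against 93.3% of all genes. Both shares lie close to the background. The range of the 7 stage means had a median of 2.53 log2 in the set and 2.12 log2 over all genes tested, and the range of the 10 group means 2.70 log2 in the set and 3.24 log2 over all genes. The median SD between the libraries of a group was 0.108 log2 in the set and 0.123 log2 over all genes tested.

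Among the receptors, Bradi2g35720.1 was placed by the study's family tree beside TIR1 and AFB1, F-box auxin receptors of Arabidopsis. It was nearly level through the grain. In log2 CPM its libraries stood at 7.21 and 7.23 in SEC, 7.27 and 7.06 in LEN and 6.66 and 6.69 in EEN. Through the embryo stages they were at 7.14 and 6.99 in TCQ, 7.24 and 7.20 in PEM, 7.47 and 7.61 in TRA, 7.07 and 7.43 in LEE, 7.40 and 7.58 in LEM, 6.92 and 7.03 in LEL, and 7.31 and 7.26 in MAT. The order ran from TRA and LEM, which overlapped, down to EEN, which lay below all other groups, and 7 of its 9 neighbouring pairs of groups overlapped in their libraries. Only 2.96% of all genes tested had a smaller range over the 7 embryo stages (1.48-fold between TRA and LEL), and 0.821% had a smaller range over the 10 groups. Small changes were still called. It fell by 0.52 ± 0.11 log2 in LEL against LEM embryos (limma adjusted p = 0.0022), a call lost in a fit of these groups alone (adjusted p = 0.062). The rise of 0.31 in MAT against LEL embryos (limma adjusted p = 0.032) was lost without LEL replicate 1 (change 0.25), MAT replicate 1 (0.28) or MAT replicate 2 (0.34), after quantile normalization (0.10, limma adjusted p = 0.43), without the variance trend (limma adjusted p = 0.061) and in a fit of these groups alone (limma adjusted p = 0.050). It was 0.56 and called with library medians set equal. The rise of 0.32 in TRA against PEM embryos (limma adjusted p = 0.047) was lost on leaving out any 1 of 12 libraries, with changes of 0.25 to 0.39. Both rises were thus close to the threshold.

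The second receptor, Bradi3g58327.1, was placed beside AFB4 and AFB5, the receptors that in Arabidopsis also bind the synthetic auxin picloram. It climbed through embryogenesis. Its log2 CPM was 4.06 and 3.98 in SEC, 3.05 and 3.23 in LEN and 3.75 and 3.54 in EEN. In embryos it was 2.88 and 3.18 in TCQ, 3.66 and 3.75 in PEM, 4.50 and 4.43 in TRA, 4.65 and 4.71 in LEE, 5.46 and 5.66 in LEM, 5.23 and 5.45 in LEL, and 5.43 and 5.48 in MAT. LEM overlapped with MAT and MAT with LEL embryos, these 3 stages lay above all other groups, and LEN and TCQ overlapped at the bottom. The gene rose in PEM against TCQ (0.67), in TRA against PEM (0.76) and in LEM against LEE embryos (0.88 ± 0.12 log2, limma adjusted p = 3.6e-05), and none of its other 3 steps was called. LEM, LEL and MAT embryos together were 1.48 ± 0.07 log2 (2.79-fold) above the mean of the 4 earlier stages (limma adjusted p = 9.9e-12).

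A near copy, Bradi3g58320.1, sits next to this receptor in the family tree. It is not one of the 9 genes, and reads shared by the copies may have been split between them by the authors' quantification. Its group means spanned less, yet where both copies were called, in 6 of 12 comparisons of groups, they moved the same way in all 6. Within a library the difference between the receptor and its copy was lowest in TCQ (-0.78 log2) and highest in LEM embryos (1.11), and lay at -0.51 in SEC, -0.48 in LEN and -0.71 in EEN. The ratio of the copies therefore shifted by 1.89 log2 (3.71-fold) over the groups, and in every stage from PEM on the difference was above that in TCQ.

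Of the ARF genes, Bradi2g59480.1 lay nearest to ARF2, a repressor that in Arabidopsis restrains cell division in the integuments and so limits seed size. It made an arch over the middle of embryogenesis. In log2 CPM it had 6.49 and 6.35 in SEC, 7.21 and 6.87 in LEN, and 7.44 and 7.09 in EEN. In embryos it had 7.28 and 7.26 in TCQ, 8.64 and 8.54 in PEM, 9.16 and 9.08 in TRA, 8.92 and 9.04 in LEE, 8.47 and 8.33 in LEM, 7.19 and 7.24 in LEL, and 6.68 and 6.75 in MAT. The 4 stages from PEM to LEM lay above every other group, TCQ and LEL embryos overlapped with EEN, LEL also with LEN, and SEC was the lowest group. It rose 2.49-fold in PEM against TCQ embryos (1.32 ± 0.12 log2, limma adjusted p = 6.0e-07) and again by 0.53 in TRA against PEM. It fell by 0.58 in LEM against LEE, by 1.18 ± 0.12 in LEL against LEM (2.27-fold, limma adjusted p = 2.6e-06) and by 0.50 in MAT against LEL embryos. The first of these falls was not called after quantile normalization (-0.14), nor the last with library medians set equal (-0.26), although the last was larger after quantile normalization (-0.81).

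Bradi4g07470.1, also in the ARF2 branch, was highest in endosperm. Its log2 CPM was 5.79 and 6.02 in SEC, 7.09 and 6.81 in LEN and 7.46 and 6.84 in EEN. The embryo libraries had 5.83 and 5.58 in TCQ, 5.48 and 5.47 in PEM, 5.45 and 5.51 in TRA, 5.39 and 5.73 in LEE, 6.03 and 5.75 in LEM, 5.97 and 5.88 in LEL, and 6.30 and 6.30 in MAT. Both endosperm groups lay above every embryo and seed coat library, and of the embryo stages only MAT stood clear of its neighbours. None of its 6 successive steps was called, and its 1.77-fold range over the stages was larger than that of 8.21% of genes. Its rise of 0.38 in MAT against LEL embryos (limma adjusted p = 0.083) was close to the threshold. A fit of MAT and LEL alone called it (limma adjusted p = 0.025), as did the fit with library medians set equal (0.62, limma adjusted p = 0.0042). LEM, LEL and MAT embryos together were 0.48 ± 0.09 log2 above the earlier stages (limma adjusted p = 0.00019), while Bradi2g59480.1 was 1.05 ± 0.07 log2 lower in the same comparison (2.07-fold, limma adjusted p = 4.5e-10). The within-library difference of these ARF2-branch genes was 0.09 log2 in LEN, against 3.64 in TRA embryos, an 11.7-fold shift in their ratio, and it was 0.11 in EEN, 0.52 in SEC and 0.41 in MAT embryos.

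**Figure D2:**
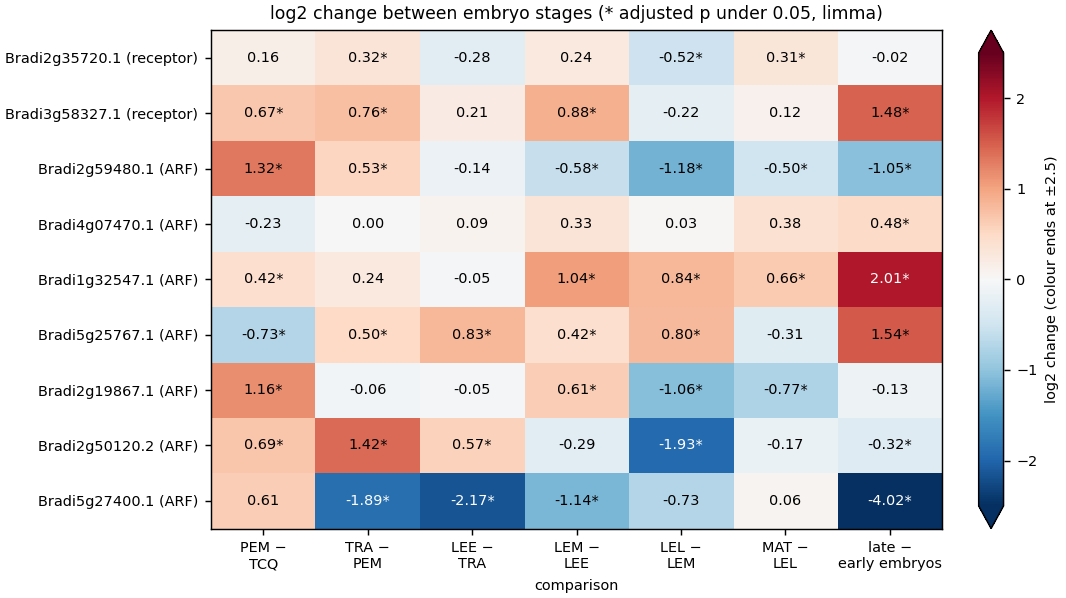
Change in log2 (colour, ending at ±2.5) of each gene (rows) for the 6 successive embryo steps and for LEM, LEL and MAT against the 4 earlier stages (columns), with asterisks on changes that limma called. Bradi1g32547.1 is called only upwards, Bradi5g27400.1 only downwards, and Bradi4g07470.1 in none of the 6 steps.

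Bradi1g32547.1 lay nearest to ARF6 and Bradi5g25767.1 in the same ARF6 and ARF8 branch, whose Arabidopsis members activate transcription and are targets of miR167. Both were higher late in embryogenesis. Bradi1g32547.1 had 4.87 and 5.01 log2 CPM in SEC, 4.24 and 4.45 in LEN and 4.76 and 4.71 in EEN. Its embryo libraries had 3.0 and 3.07 in TCQ, 3.51 and 3.40 in PEM, 3.59 and 3.80 in TRA, 3.78 and 3.52 in LEE, 4.65 and 4.72 in LEM, 5.43 and 5.62 in LEL, and 6.21 and 6.16 in MAT. MAT and then LEL embryos stood above all other groups without overlap, TCQ below all, and TRA and LEE overlapped. LEE did not pass the test against TRA (-0.05), and the gene then rose in each of the last 3 steps, by 1.04 ± 0.12 in LEM against LEE (limma adjusted p = 4.1e-06), by 0.84 in LEL against LEM and by 0.66 in MAT against LEL. LEM, LEL and MAT embryos were 4.01-fold above the earlier stages (2.01 ± 0.06 log2, limma adjusted p = 1.5e-13). Its early rise of 0.42 in PEM against TCQ was not called without PEM replicate 1 (0.36, limma adjusted p = 0.061).

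For Bradi5g25767.1 the libraries read 4.89 and 4.73 log2 CPM in SEC, 1.53 and 1.26 in LEN and 3.49 and 3.34 in EEN. Along the stages it had 3.27 and 3.59 in TCQ, 2.66 and 2.74 in PEM, 3.13 and 3.28 in TRA, 4.14 and 3.93 in LEE, 4.38 and 4.52 in LEM, 5.10 and 5.41 in LEL, and 5.01 and 4.89 in MAT. It was highest in LEL embryos and lowest in late endosperm, and among the 9 neighbouring pairs in its order only TCQ and EEN overlapped. It first fell by 0.73 ± 0.15 log2 in PEM against TCQ embryos (limma adjusted p = 0.00068), the step in which Bradi1g32547.1 rose, and later rose in LEE against TRA (0.83, limma adjusted p = 0.0012) and in LEL against LEM (0.80, limma adjusted p = 0.00056). A fit of LEL and LEM alone did not call the latest of these rises (limma adjusted p = 0.053). Calls of 0.50 in TRA against PEM and 0.42 in LEM against LEE were weaker still. The TRA call was lost without PEM replicate 1 (0.46), PEM replicate 2 (0.54) or TRA replicate 2 (0.43), and the LEM call without LEE replicate 2 (0.31) or LEM replicate 2 (0.35). The LEM call was also lost with library medians set equal (0.34), after quantile normalization (0.34) and in a fit of LEM and LEE alone (limma adjusted p = 0.065). LEM, LEL and MAT embryos were 2.91-fold above the earlier stages (1.54 ± 0.08 log2, limma adjusted p = 4.5e-11).

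Bradi2g19867.1 and Bradi2g50120.2 were sisters in the branch of ARF3 and ARF4, which in Arabidopsis set the lower side of lateral organs and are held back by trans-acting small RNAs. Bradi2g50120.2 had the widest range of the set over the 10 groups. Its log2 CPM was 5.68 and 5.59 in SEC, 1.89 and 1.47 in LEN and 2.96 and 3.13 in EEN. In embryos it stood at 5.11 and 5.28 in TCQ, 5.89 and 5.88 in PEM, 7.26 and 7.35 in TRA, 7.94 and 7.82 in LEE, 7.60 and 7.58 in LEM, 5.56 and 5.75 in LEL, and 5.43 and 5.53 in MAT. LEE, LEM and TRA embryos lay at the top in that order, both endosperm groups lay far below everything else, and only LEL embryos and SEC overlapped. The range over the 10 groups was 6.20 log2, larger than that of 86.4% of genes tested. It rose in PEM against TCQ (0.69), in TRA against PEM (1.42 ± 0.12 log2, limma adjusted p = 9.5e-07) and in LEE against TRA embryos (0.57), and fell 3.82-fold in LEL against LEM (-1.93 ± 0.12 log2, limma adjusted p = 2.0e-08).

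The sister gene Bradi2g19867.1 had 2.07 and 2.33 log2 CPM in SEC, 3.45 and 3.60 in LEN and 3.94 and 3.97 in EEN. Its stage values were 2.74 and 2.96 in TCQ, 3.90 and 4.12 in PEM, 3.88 and 4.0 in TRA, 4.07 and 3.73 in LEE, 4.37 and 4.65 in LEM, 3.35 and 3.54 in LEL, and 2.75 and 2.59 in MAT. LEM embryos were the highest group and SEC the lowest, and PEM, EEN, TRA and LEE overlapped in a chain between them. It rose by 1.16 ± 0.16 log2 in PEM against TCQ (limma adjusted p = 2.0e-05), fell by 1.06 in LEL against LEM and fell by 0.77 in MAT against LEL embryos. The rise of 0.61 in LEM against LEE was not called without LEE replicate 2 (0.44) or LEM replicate 2 (0.47), nor in a fit of these groups alone. The sisters thus shared the fall at LEL, but the within-library difference between them was -1.84 log2 in LEN, against 3.98 in LEE embryos, a 56.7-fold shift in their ratio and the widest of the 4 pairs of related genes compared.

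Bradi5g27400.1 lay nearest to ARF17, one of the ARF genes that in Arabidopsis are cut by miR160. It was highest in PEM and TCQ embryos. Its log2 CPM was 0.63 and 0.99 in SEC, -0.23 and 0.07 in LEN and 1.95 and 2.09 in EEN. In embryos it was 2.18 and 2.36 in TCQ, 2.79 and 2.97 in PEM, 0.99 and 0.98 in TRA, -1.42 and -0.94 in LEE, -1.74 and -2.90 in LEM, -2.70 and -3.40 in LEL, and -2.57 and -3.40 in MAT. PEM embryos were highest, then TCQ and EEN, and LEM, MAT and LEL embryos overlapped at the bottom. It was above 1 CPM in 11 of 20 libraries, and LEL replicate 2 and MAT replicate 2 shared the same lowest value. Late levels are thus at or close to the floor of this gene, and no fold is given for them. Its rise of 0.61 in PEM against TCQ embryos was not called (limma adjusted p = 0.18). A fit of PEM and TCQ alone called it (limma adjusted p = 0.030), as did log2(CPM + 1) (0.52, limma adjusted p = 0.0015). The gene fell by 1.89 ± 0.37 log2 in TRA against PEM (limma adjusted p = 0.0015) and by 2.17 ± 0.37 in LEE against TRA embryos (limma adjusted p = 0.00091). A further fall of 1.14 in LEM against LEE was not called without LEE replicate 2 (-0.90) or LEM replicate 2 (-0.56), after quantile normalization, on the log2(CPM + 1) scale (-0.25) or in a fit of these groups alone. The 3 oldest stages were 4.02 ± 0.20 log2 below the earlier ones on the deposited scale (limma adjusted p = 3.0e-11). The sizes of this gene's changes depend on the scale: on log2(CPM + 1), where the calls held, this change was -1.72, the fall in LEE against TRA -1.05 and, in the tissue comparisons that come next, LEN against LEL 0.79, SEC against LEL 1.30 and LEN against EEN -1.38.

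Counted over the set, 6 of 9 genes were called in PEM against TCQ (5 higher and 1 lower), where 53.3% of all genes were (28.7% higher and 24.6% lower). In TRA against PEM 6 were called (5 higher, 1 lower), against 29.3% of all genes (13.4% higher, 15.9% lower). In LEE against TRA 3 were (2 higher, 1 lower), against 21.9% (11.2% higher, 10.7% lower). In LEM against LEE 6 were called (4 higher, 2 lower), against 51.9% of all genes (25.0% higher, 26.9% lower), but only 3 without LEM replicate 2 and 3 in a fit of these groups alone. In LEL against LEM 6 were called (2 higher, 4 lower), against 37.1% of all genes (18.4% higher, 18.7% lower). In MAT against LEL 4 were (2 higher, 2 lower), against 52.5% (24.7% higher, 27.9% lower). The median change of the set over the 6 steps in order of age was 0.61, 0.32, -0.05, 0.33, -0.52 and 0.06, against medians between -0.04 and 0.05 over all genes tested. For LEM, LEL and MAT against the 4 earlier stages 7 of 9 were called (4 higher, 3 lower), against 83.1% of all genes (40.6% higher, 42.6% lower), with a median change of -0.02 in the set, against -0.05 over all genes. By this comparison Bradi1g32547.1 and Bradi5g25767.1 of the ARF6 and ARF8 branch, the second receptor and Bradi4g07470.1 were higher late. Bradi2g59480.1, Bradi2g50120.2 and Bradi5g27400.1 were lower. After quantile normalization the fall of 0.32 in Bradi2g50120.2 was not called (-0.14) and that in Bradi2g59480.1 was smaller (-0.59).

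Endosperm and seed coat were each set against embryos of about the same age of grain, EEN against TRA and LEN and SEC against LEL. In these bulk samples, fewer cells of a type and less RNA per cell cannot be told apart. A list of 6 embryo markers was used (WOX9, STM, PLT1, WOX5, FIL and CUC2). In each of EEN, LEN and SEC, 5 of the 6 were at or below 0 log2 CPM in both libraries. The exceptions were WOX9 at 5.15 in EEN and 0.50 in LEN and FIL at 1.03 in SEC. The summed level of the 6 was 36.3 to 37.5 CPM in EEN, 2.95 to 3.22 in LEN and 4.06 to 4.07 in SEC. It was 1355 to 1360 CPM in TRA and 48.3 to 50.03 in LEL embryos, but 20.4 to 23.04 in MAT embryos, which is below EEN. WOX9 made up most of this sum in EEN (35.5 CPM) and in TRA embryos (990 CPM). The study drew further lineage markers that this list leaves out, among them YUC3 (suspensor) and LOG4 (vascular tissue). Levels of the others, such as KNAT1, SHR and SCR, are not given here. YUC3 was at 2.69 log2 CPM in SEC, -2.78 in LEN and -3.11 in EEN, against 2.31 in LEL and 3.35 in TRA embryos. LOG4 was at 1.09 in SEC, 2.27 in LEN and 1.46 in EEN, against 0.42 in LEL and 4.77 in TRA embryos. No marker of endosperm or of seed coat could be matched to an identifier, so these labels were not checked from their own side. Ratios of genes low in embryos allowed at most 0.519% of EEN, 0.153% of LEN or 0.464% of SEC RNA in an embryo library. RNA with these profiles would make up at most 6.34% of the level of Bradi5g27400.1 (LEL replicate 2). For any other gene of the set it would be at most 2.03%. No endosperm or seed coat of other ages was profiled, so these limits do not cover carry-over into embryos of those ages.

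In EEN against TRA embryos 7 of 9 genes were called (3 higher, 4 lower), where 71.4% of all genes were (34.8% higher, 36.6% lower). The median change of the set was 0.0074, against -0.04 over all genes tested. The largest difference was that of the ARF3/ARF4-branch gene Bradi2g50120.2, at 2.96 and 3.13 log2 CPM in EEN, against 7.26 and 7.35 in TRA embryos (19.2-fold lower, -4.26 ± 0.12 log2, limma adjusted p = 2.2e-13). Bradi2g59480.1 was 3.62-fold lower (-1.86 ± 0.12), and the receptors Bradi2g35720.1 (-0.86 ± 0.11) and Bradi3g58327.1 (-0.82 ± 0.12) were both lower in early endosperm. Higher in early endosperm were Bradi4g07470.1 (3.19-fold, 1.67 ± 0.17 log2, limma adjusted p = 4.2e-07), Bradi1g32547.1 (1.04 ± 0.12) and Bradi5g27400.1 (1.03 ± 0.37, limma adjusted p = 0.022). The last call was lost without EEN replicate 2 (0.96), TRA replicate 1 (1.04) or TRA replicate 2 (1.03). In this comparison the ARF2-branch genes of the set went opposite ways.

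In LEN against LEL embryos 6 of 9 were called (2 higher, 4 lower), against 73.9% of all genes (36.7% higher, 37.2% lower), and the median change of the set was -0.18, against 0.00 over all genes tested. Bradi2g50120.2 was 15.8-fold lower (-3.98 ± 0.12 log2, limma adjusted p = 3.9e-13) and Bradi5g25767.1 was 14.5-fold lower, at 1.53 and 1.26 log2 CPM in LEN, against 5.10 and 5.41 in LEL embryos (-3.86 ± 0.15, limma adjusted p = 4.0e-12). The receptor Bradi3g58327.1 was 4.59-fold lower and Bradi1g32547.1 2.26-fold lower. Bradi4g07470.1 was 2.03-fold higher in late endosperm, as it was in early endosperm. Bradi5g27400.1 was higher too, by 2.97 ± 0.37 log2 on the deposited scale (limma adjusted p = 3.1e-06), against embryo libraries at or near the floor. The receptor Bradi2g35720.1 was not called (0.20), although it was with library medians set equal (0.36, limma adjusted p = 0.011), and its sign turned after quantile normalization (-0.18). Bradi2g59480.1 was not called either (-0.18, limma adjusted p = 0.20), but was after quantile normalization (-0.58, limma adjusted p = 0.00023) and without LEN replicate 1 (-0.35, limma adjusted p = 0.032).

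**Figure D3:**
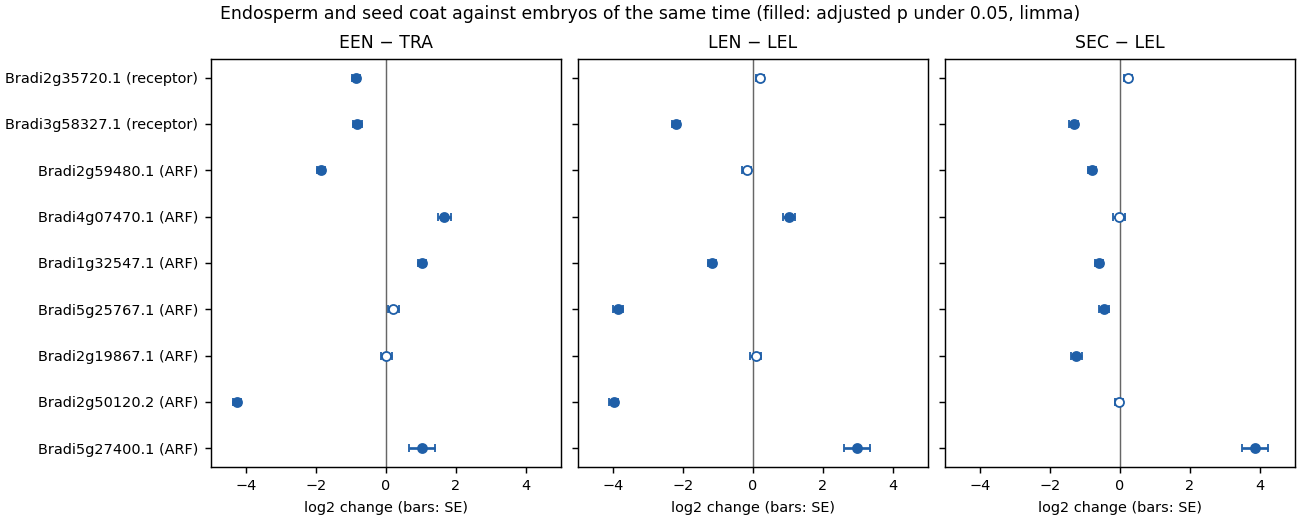
Change in log2 with its SE (horizontal axis) of each gene (rows) in EEN against TRA, LEN against LEL and SEC against LEL embryos (panels), with filled points called by limma. Bradi2g50120.2 lies at -4.26 and -3.98 in the endosperm panels and at -0.02 in the seed coat panel.

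In SEC against LEL embryos 6 of 9 were called (1 higher, 5 lower), against 76.7% of all genes (37.4% higher, 39.3% lower). The median change of the set was -0.44, against -0.02 over all genes tested. Lower in seed coat were Bradi3g58327.1 (-1.32 ± 0.12 log2, limma adjusted p = 1.0e-07), Bradi2g19867.1 (-1.24 ± 0.16), Bradi2g59480.1 (-0.80 ± 0.12), Bradi1g32547.1 (-0.58 ± 0.12) and Bradi5g25767.1 (-0.44 ± 0.15, limma adjusted p = 0.013). The last was not called without LEL replicate 2 (-0.29) or SEC replicate 2 (-0.37), nor in a fit of these groups alone, but was larger after quantile normalization (-0.69), as was that of Bradi2g59480.1 (-1.23). Bradi5g27400.1 was the only gene of the set called higher, by 3.86 ± 0.37 log2 on the deposited scale (limma adjusted p = 1.3e-07), at 0.63 and 0.99 log2 CPM in SEC, against -2.70 and -3.40 in LEL embryos. Bradi2g50120.2 (-0.02) and Bradi4g07470.1 (-0.02) were not called, and their SEC libraries overlapped those of LEL embryos. The receptor Bradi2g35720.1 was close to the threshold and not called (0.24, limma adjusted p = 0.063). Its SEC libraries, at 7.21 and 7.23 log2 CPM, lay above those of LEL embryos at 6.92 and 7.03, and its sign turned after quantile normalization (-0.13).

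Set against late endosperm, seed coat differed in 8 of 9 genes (5 higher, 3 lower), where 76.0% of all genes were called (34.6% higher, 41.5% lower), with a median change of 0.60 in the set, against -0.14 over all genes. Bradi2g50120.2 was 15.6-fold higher in seed coat, at 5.68 and 5.59 log2 CPM in SEC, against 1.89 and 1.47 in LEN (3.96 ± 0.12 log2, limma adjusted p = 1.8e-13). Bradi5g25767.1 was 10.7-fold higher (3.41 ± 0.15, limma adjusted p = 8.5e-12), and Bradi3g58327.1 and Bradi1g32547.1 were 1.84-fold and 1.51-fold higher, the second by 0.60 log2 and by 0.33 with library medians set equal. Bradi2g19867.1 was 2.5-fold lower in seed coat (-1.32 ± 0.16, limma adjusted p = 1.2e-06), opposite to its sister, and the ARF2-branch genes Bradi4g07470.1 (-1.05 ± 0.17) and Bradi2g59480.1 (-0.62 ± 0.12) were lower as well. The rise of 0.89 in Bradi5g27400.1 (limma adjusted p = 0.041) was lost without LEN replicate 1 (0.74), LEN replicate 2 (1.04), SEC replicate 1 (1.08) or SEC replicate 2 (0.71), and with either other scaling, though on log2(CPM + 1) it was called (0.50). The comparisons of SEC and LEN with LEL embryos share the LEL libraries, and those of SEC and LEL with LEN share the LEN libraries.

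Setting all library medians equal moved the median change of all genes by 0.158 log2 in EEN against TRA, 0.165 in LEN against LEL, -0.103 in SEC against LEL, -0.268 in SEC against LEN, -0.129 in LEN against EEN and 0.246 in MAT against LEL. In MAT against LEL it also moved the share of all calls that were higher to 62.0%, from 47.0% on the deposited scale, and there Bradi3g58327.1 (0.36) and Bradi4g07470.1 (0.62) were then called higher. No call of the set changed its direction under any of the 29 alternatives.

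Within the endosperm, LEN differed from EEN in 7 of 9 genes (1 higher, 6 lower), where 62.1% of all genes were called (31.3% higher, 30.9% lower). The median change of the set was -0.43, against 0.00 over all genes tested. Bradi5g25767.1 was 4.05-fold lower in late endosperm (-2.02 ± 0.15 log2, limma adjusted p = 1.2e-08), Bradi5g27400.1 was lower by 2.10 ± 0.37 and Bradi2g50120.2 was 2.57-fold lower (-1.36 ± 0.12, limma adjusted p = 1.2e-07). The receptors parted, with Bradi2g35720.1 higher (0.49 ± 0.11, limma adjusted p = 0.0015) and Bradi3g58327.1 lower (-0.51 ± 0.12, limma adjusted p = 0.0024). A fit of these groups alone did not call the fall in Bradi3g58327.1 (limma adjusted p = 0.062). Falls of 0.39 in Bradi1g32547.1 and 0.43 in Bradi2g19867.1 were smaller. The first was lost without LEN replicate 1 (-0.29), and the second without EEN replicate 1 (-0.44), EEN replicate 2 (-0.41) or LEN replicate 1 (-0.35).

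Whether endosperm and embryo changed alike over about the same time was tested as the change in LEN against EEN minus the change in LEL against TRA embryos. It differed for 7 of 9 genes (3 with a positive and 4 with a negative difference), against 62.5% of all genes tested (31.3% positive, 31.3% negative). The embryo change alone, LEL against TRA, was not tested. Bradi5g25767.1 had a change of -2.02 in endosperm and of 2.05 in embryos (difference -4.07 ± 0.21 log2, limma adjusted p = 7.1e-10). Its ARF6-branch relative Bradi1g32547.1 had changes of the same signs, at -0.39 in endosperm and 1.83 in embryos (difference -2.22 ± 0.17, limma adjusted p = 2.9e-08), and so did the receptor Bradi3g58327.1, at -0.51 and 0.87 (difference -1.38 ± 0.18). Bradi2g35720.1 had the opposite signs, at 0.49 in endosperm and -0.57 in embryos (difference 1.06 ± 0.16, limma adjusted p = 4.2e-05). Bradi2g59480.1 stood at -0.23 in endosperm, a change that was not called, and at -1.90 in embryos (difference 1.68 ± 0.17). After quantile normalization the differences of Bradi2g35720.1 (0.60) and Bradi2g59480.1 (1.02) were smaller and still called.

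The other differences were less firm. Bradi4g07470.1 differed by -0.65 ± 0.25 (limma adjusted p = 0.032), a call lost without EEN replicate 1 (-0.34), LEL replicate 1 (-0.60), LEN replicate 2 (-0.51), TRA replicate 1 (-0.62) or TRA replicate 2 (-0.68). Bradi5g27400.1 differed by 1.93 ± 0.53 (limma adjusted p = 0.0050), with changes of -2.10 in endosperm and -4.04 in embryos, but on the log2(CPM + 1) scale, which damps values near the floor, the difference was 0.03 (limma adjusted p = 0.88). For the ARF3/ARF4-branch sisters the difference was not called, at 0.07 ± 0.22 for Bradi2g19867.1 and 0.28 ± 0.17 for Bradi2g50120.2. The difference of Bradi2g50120.2 was called without LEN replicate 2 (0.49, limma adjusted p = 0.014) and on log2(CPM + 1) (0.49, limma adjusted p = 0.010), and turned its sign after quantile normalization (-0.13).

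**Figure D4:**
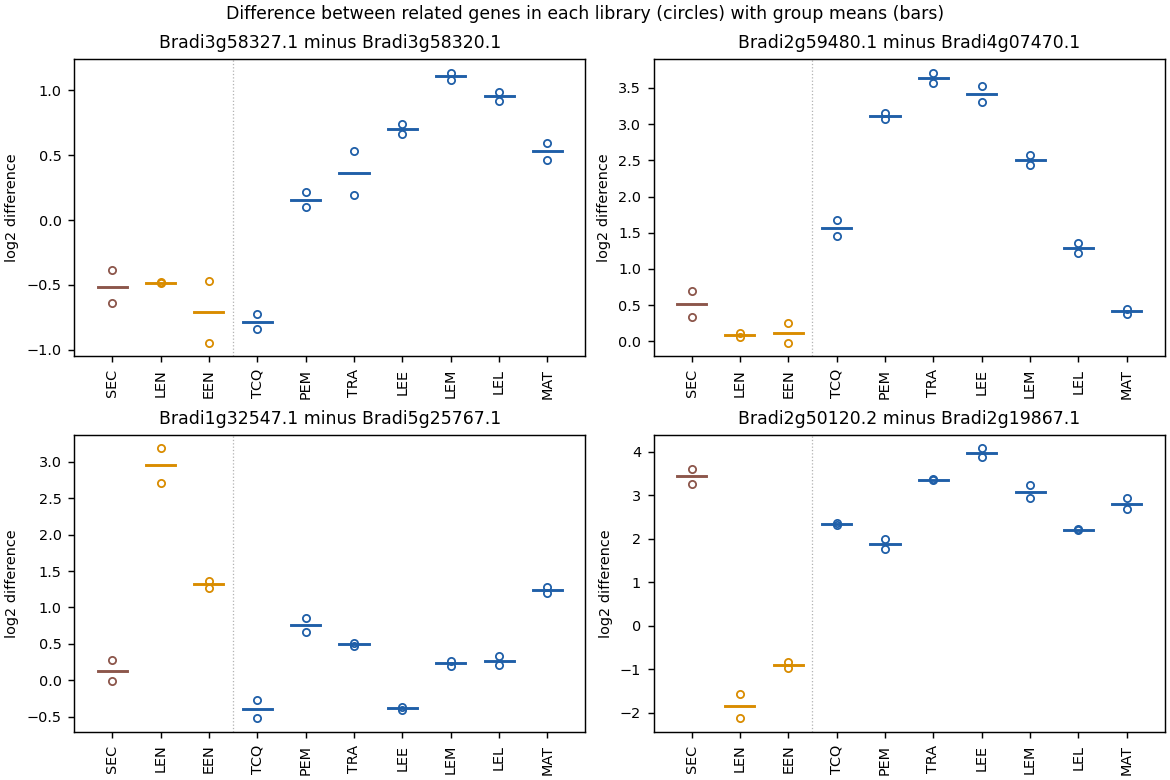
Difference in log2 within each library (circles) and as group means (bars) for 4 pairs of related genes, the receptor Bradi3g58327.1 and its near copy and 3 pairs of ARF genes from 1 branch each, with groups along the horizontal axis. A level row of points would mean a constant ratio, whereas the group means span 1.89, 3.55, 3.35 and 5.82 log2.

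Calls of related genes were set side by side over the 12 comparisons of groups. Bradi1g32547.1 and Bradi5g25767.1 of the ARF6 and ARF8 branch were both called in 8 of 12 and in opposite directions in 1 (PEM against TCQ). Bradi2g50120.2 and Bradi2g19867.1 were both called in 4 and opposite in 1 (SEC against LEN), and Bradi2g59480.1 and Bradi4g07470.1 were both called in 3 and opposite in 2 (late against early embryos, and EEN against TRA). Several of the 12 comparisons share libraries, so these are counts and not independent events.

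As a description over the 10 group means, which share libraries and a common scaling, the profile of Bradi3g58327.1 was most like that of Bradi5g25767.1 (Pearson r = 0.75) and least like that of Bradi5g27400.1 (-0.85). Bradi2g59480.1 was most like Bradi2g19867.1 (0.77), an ARF of another branch. Bradi2g35720.1 was most like Bradi2g50120.2 (0.64) and Bradi4g07470.1 was most like Bradi1g32547.1 (0.44) and least like Bradi2g50120.2 (-0.85). Bradi5g27400.1 had no close match in the set (0.12 with Bradi2g59480.1). Outside the set, the gene with the profile most like that of the receptor Bradi2g35720.1 was Bradi1g26960.1 (r = 0.87), and that most like Bradi3g58327.1 was Bradi1g57457.1 (r = 0.98), neither of them annotated in the sources used here.

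Other genes linked to auxin were available as a list of 4, YUC3 of auxin synthesis, the auxin-induced root regulators PLT1 and WOX5, and LOG4, which activates cytokinin downstream of an ARF in Arabidopsis. All 4 rose in PEM against TCQ embryos, where 28.7% of all genes did. All 4 fell in LEE against TRA and again in LEM against LEE, where 10.7% and 26.9% of all genes fell. In TRA against PEM 1 rose and 2 fell (13.4% and 15.9% of all genes). In LEL against LEM 1 rose (18.4%), and in MAT against LEL 1 fell (27.9%). In LEM, LEL and MAT embryos together all 4 were lower than in the earlier stages (42.6% of all genes), where of the 9 receptor and ARF genes 4 were higher and 3 lower. All 4 were lower in EEN than in TRA embryos (36.6% of all genes). In LEN against LEL embryos 1 was higher and 3 were lower (36.7% and 37.2%), and in SEC against LEL 2 were lower (39.3%). In SEC against LEN 1 was higher and 1 lower (34.6% and 41.5%), and in LEN against EEN 1 was higher (31.3%). PLT1 and WOX5 were at their lowest value in all libraries of EEN, LEN and SEC, and YUC3 was in both EEN libraries and in LEN replicate 2, so no fold is given for them there. This list is short and was not chosen to represent the pathway.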

How the data were processed

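RNA of pooled embryos or of tissue from pooled grains was amplified to antisense RNA by the authors, and 4 libraries shared a sequencing lane. The submitters' processing notes name CASAVA, Trimmomatic and Salmon. The authors quantified reads on representative gene models of Bd21, normalized the counts and deposited log2 CPM values for 23749 genes in 20 libraries. The lowest value shared by libraries was -2.84 log2 CPM for PLT1 and -1.87 for WOX5, so the floor differed between genes. How it was set is not given in the sources used here. Read numbers are not given either. The depth behind a value is therefore unknown and counting intervals are left out. Antilogs summed to 739963 to 1084752 per library, and library medians of the genes tested were 2.71 to 3.15 log2 CPM.

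The deposited log2 values were fitted in R 4.3.3 with limma 3.58.1, with 1 mean for each of 10 groups of 2 libraries and moderated variances with a trend (degrees of freedom: 10 residual, 4.82 prior). Of the genes, 22902 exceeded 0 log2 CPM in 2 or more libraries and were tested, and 847 were not. Each adjusted p is limma's, by Benjamini-Hochberg over all genes tested within a comparison, and two-sided, with a threshold of 0.05. The fit was tested on simulated data with 1 spread common to all genes and groups. The real data do not have such a common spread, so this checks the running of the fit and not its error rates here.

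Every gene of the set is named, with the near copy of 1 receptor, the most similar gene of the set by Pearson r, and for each receptor 1 other gene with a group mean of at least 5 log2 CPM. Genes, lists and tests were chosen with earlier results of these data known. Branches of the families were read from the study's family trees. A reference table of 31335 genes matched 0 identifiers, so coordinates and sequences are not shown and auxin genes could not be listed by description. The limit on carried-over tissue RNA was the 50th lowest embryo-to-tissue ratio among genes of at least 6 log2 CPM in that tissue. Alternatives (29) were other filters, scalings, offsets, variance models, a replicate block, fits of single comparisons and leaving out each library.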

Additional observations from a re-analysis of the deposited data

Results flagged for a closer look

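The change in endosperm (LEN against EEN) differed from the change in embryos over about the same time (LEL against TRA) for 7 of 9 genes, by limma's test of the difference itself, in which 62.5% of all genes tested were called, so the count lies near the background. The difference, endosperm minus embryo, was -4.07 log2 for Bradi5g25767.1, -2.22 for Bradi1g32547.1 and -1.38 for Bradi3g58327.1, genes with a negative change in endosperm and a positive one in embryos. It was 1.06 for the receptor Bradi2g35720.1, with the opposite signs, and 1.68 for Bradi2g59480.1, at -0.23 in endosperm and -1.90 in embryos. It was -0.65 for Bradi4g07470.1, a call lost on leaving out any 1 of 5 libraries. It was 1.93 for Bradi5g27400.1, with embryo libraries at or near the floor, and 0.03 on the log2(CPM + 1) scale. No group had more than 2 libraries, so single libraries were not tested for standing apart within a group.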

How the results depend on the processing

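Of 79 calls of the 9 genes in the 12 comparisons of groups and in the test of tissue by time, 59 held under all 29 alternatives, 20 were lost under at least 1, and no called change turned its direction. Counting also changes called only under an alternative, there were 96. Among the added ones were Bradi5g27400.1 in PEM against TCQ (0.52 on log2(CPM + 1), limma adjusted p = 0.0015) and, with library medians set equal, Bradi2g59480.1 in LEN against EEN (-0.36) and Bradi2g50120.2 in LEM against LEE (-0.37). A change that was not called is thus not shown to be absent. The count of genes called moved most for LEM against LEE, where 6 became 3 in a fit of these groups alone and ranged from 3 to 7 on leaving out 1 library. In TRA against PEM 6 became 4 without PEM replicate 1, PEM replicate 2 or TRA replicate 2, and in LEL against LEM 6 became 4 in a fit of these groups alone. Other counts moved by less than 1.5 times. With a library left out, the lone library of its group is assumed to vary like those of the other groups. Changes that were not called turned their sign in these cases, for which the cause was not tested: Bradi2g50120.2 in MAT against LEL with medians set equal (0.072), and, after quantile normalization, Bradi2g50120.2 in LEM against LEE (0.0020) and in the difference of tissue by time (-0.13), Bradi3g58327.1 in MAT against LEL (-0.027), and Bradi2g35720.1 in LEN against LEL (-0.18), in SEC against LEL (-0.13) and in late against early embryos (0.32, then called, limma adjusted p = 7.3e-05). On leaving out 1 library, the late against early change of Bradi2g35720.1 ranged from -0.064 to 0.025, and the LEN against EEN change of Bradi4g07470.1 from -0.51 to 0.11. Nothing in the labels says that a replicate number marks a shared batch, so the numbers were not taken to pair the libraries. Over 45 pairs of groups the correlation of deviations ran from -0.13 to 0.55 with a median of 0.05, and 15 were over 0.1 and 4 under -0.1, which leaves shared effects in some groups possible. A fit with the replicate number as a block gave the same count of genes called in every comparison, for example 6 in PEM against TCQ and 9 over the 10 groups. With 2 libraries a group and unknown depth, small changes near the threshold and the values of Bradi5g27400.1 below 1 CPM are the least certain.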
